A study of Mus musculus with 6 samples.

Results

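The genes described here are 35 adipocyte and lipid storage genes. They were chosen by name, from the known biology of fat cells, but with earlier results of these data known. Each was read from the transcript cluster of the array table that carries its symbol alone. Of the 35 genes, 32 had such a row among the 35556 transcript clusters, each a single row. Cfd (the adipokine adipsin), Acsl1 (an acyl-CoA synthetase) and Adrb3 (the adrenergic receptor of fat cells) had no row of their own symbol and were not analysed here. Total RNA of dorsal skin came from 3 Cbl-b-/- mice and 3 wild-type (WT, BL6) mice, all of them exposed once to UVB at 80 mJ/cm2 and sampled 24 h later. Each RNA was read on its own array, of the type Affymetrix Mouse Gene 1.0 ST, and the values are log2 expression levels. The mice were matched for sex and age, which are not given, and the sources used here do not describe the Cbl-b allele. Every array is of irradiated skin and skin taken before irradiation was not analysed here, so each difference below compares the genotypes after UVB.

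White adipocytes form a layer in the deep dermis of mouse skin. They take up fatty acids that lipoprotein lipase releases from blood lipids, join them to glycerol 3-phosphate, and store the triglyceride in a lipid droplet coated by perilipins. Lipases break the triglyceride down again, and the glycerol leaves the cell through the channel aquaporin 7. The nuclear receptor PPARγ and the transcription factor C/EBPα switch on most of these genes, and the dermal fat layer is known to thicken while hair grows.

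Cblb, which encodes the E3 ubiquitin ligase Cbl-b, measured 8.61, 8.69 and 8.61 in Cbl-b-/- replicates 1 to 3 and 9.90, 9.66 and 9.72 in WT replicates 1 to 3. The log2 fold change was -1.12, with a standard error (SE) of 0.09 and an adjusted p of 0.0782 in limma, and the arrays of each genotype matched their label. Array medians over all rows lay between 6.30 and 6.34, and correlations between arrays, across rows, between 0.980 and 0.993. A level of 5.43 was used as background, the 95th percentile of the means of 1035 olfactory receptor rows. Of the 32 adipocyte genes, 31 lay above it in both genotypes, among them the defining markers Adipoq, Plin1, Fabp4 and Lep on every array, and only Ucp1, the uncoupling protein of brown fat, did not. With 3 arrays in a group, the smallest two-sided p of an exact permutation test on a single gene is 0.1.

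After UVB, Aqp7 was higher in the Cbl-b-/- than in the WT mice, 2.03-fold by the group means, and was the only one of the 32 genes to meet the study's thresholds in limma. The call did not hold in the methods' test or at an adjusted p. These thresholds are a p under 0.05, read as unadjusted, with at least a 1.5-fold difference. In limma, 1 of the 32 genes met them as higher, against 0.276% of all rows, and 0 met them as lower, against 0.945% of all rows. At an unadjusted p under 0.05 alone, 3 genes were higher, namely Aqp7, Cebpa and Agpat2, against 3.68% of all rows, and 0 were lower, against 2.87%. At an adjusted p under 0.05 the count was 0, against 0.00281% of all rows, which is 1 row. The methods' test, a per-gene comparison of the same values without the shared estimate of spread, put 0 genes past the study's thresholds, against 0.751% of all rows, and 3 past an unadjusted p under 0.05, namely Agpat2, Cebpa and Ucp1, against 6.98%. The median log2 fold change of the 32 genes was 0.17 and that of all rows 0.02. Of the 32, 25 lay above 0, which is 78.1%, against 55.8% of all rows. The median was 0.04 without Cbl-b-/- replicate 1, 0.02 without WT replicate 3, 0.12 without Cbl-b-/- replicate 3, 0.28 without WT replicate 1 and 0.34 without Cbl-b-/- replicate 2.

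These genes varied widely within each genotype. The range over the 6 arrays had a median of 1.02 log2 units over the 32 genes, and 0.41 over the rows above background. The range exceeded that second value for 27 of the 32. The pooled SD within genotypes had a median of 0.43 for these genes and 0.14 for all rows. The difference between genotypes was larger than the pooled SD for 7 of the 32, a count that was not made over all rows. The 95% interval of the log2 fold change stayed within the 1.5-fold threshold in both directions for 9 genes and reached a difference of 1 log2 unit higher for 12 genes and 1 log2 unit lower for 5. Apart from that of Aqp7, the intervals that reached 1 log2 unit hold no difference as well as a doubling or a halving.

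**Figure D1:**
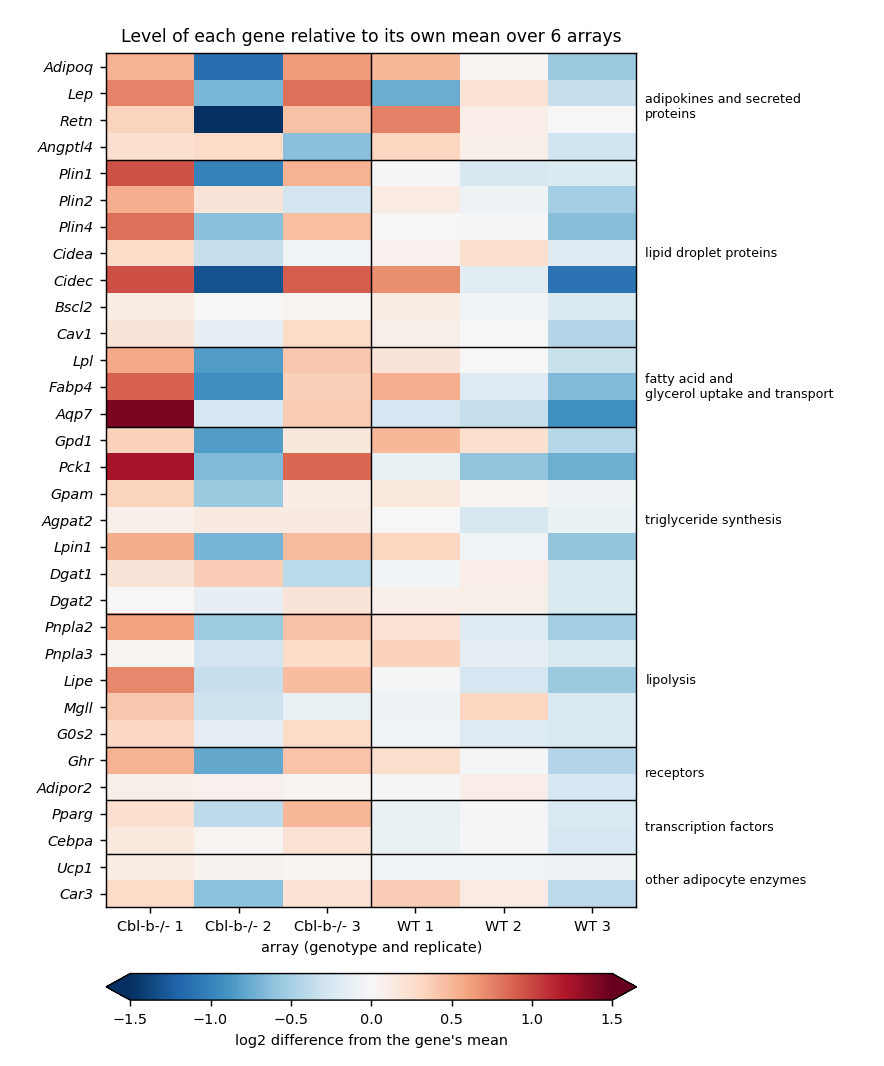
Log2 level of each of the 32 measured genes (rows, grouped by role) in each of the 6 arrays (columns), as the difference from the gene's own mean, with red above and blue below it and the colours ending at 1.5 log2 units. The Cbl-b-/- 2 column is the bluest for 16 genes and the WT 3 column for 12, and the Cbl-b-/- 1 column is the reddest for 18.

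Most of the genes went up and down together from array to array, within genotypes as well as between them. Of the 32 genes, 16 were lowest in Cbl-b-/- replicate 2 and 12 in WT replicate 3, together 28 or 87.5%, where 36.5% of the rows above background were lowest in one of these arrays. This pair is the one that was lowest for most of the 32 genes, so the gap between the shares is partly built in. Cbl-b-/- replicate 1 held the highest value of 18 genes. The median level of the 32 genes was 9.42, 8.45 and 9.26 in Cbl-b-/- replicates 1 to 3 and 9.11, 9.03 and 8.83 in WT replicates 1 to 3. The group means of this level were 9.05 ± 0.52 (SD, n = 3) and 8.99 ± 0.15 (SD, n = 3), and the Cbl-b-/- arrays enclosed the WT arrays. In whole skin, fewer fat cells and less of these RNAs in each fat cell cannot be told apart.

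Other tissues of the sample moved across the arrays as well. The median level of 16 skeletal muscle genes was 10.37, 9.12 and 10.34 in Cbl-b-/- replicates 1 to 3 and 10.71, 10.35 and 9.69 in WT replicates 1 to 3. All 16 were lowest in Cbl-b-/- replicate 2 or WT replicate 3, 15 of them in the first, so muscle genes were low in the arrays that were low in adipocyte genes. Between genotypes 13 of the 16 muscle genes lay below 0, with a median log2 fold change of -0.27, and 1 met the thresholds, on the higher side. It was Myh2, a myosin heavy chain (0.85, SE 0.28), which missed them in the methods' test and without Cbl-b-/- replicate 1 or 3 or WT replicate 1 or 3. The median level of 18 genes of the growing hair follicle ran from 5.46 in WT replicate 1 to 9.11 in WT replicate 3 and was 5.70, 6.56 and 7.19 in the Cbl-b-/- arrays. Genes of the sebaceous gland, the other lipid-rich cells of skin, had median levels from 9.53 to 10.05 over 11 genes. Those of the blood endothelium, over 10 genes, lay between 7.23 and 7.32 in 5 arrays and at 6.67 in WT replicate 3. The lists of 10 fibroblast genes and 12 macrophage genes ran from 9.55 to 9.93 and from 8.46 to 9.25. The part of these tissues in the adipocyte gene differences was not tested.

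**Figure D2:**
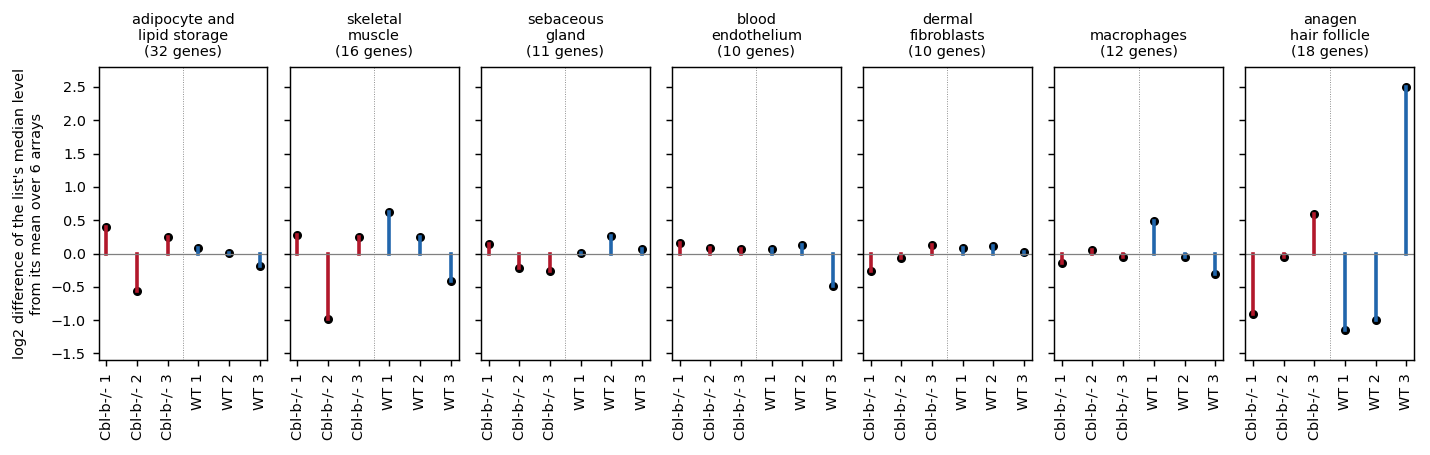
Median log2 level of the adipocyte and lipid storage genes and of 6 marker lists in each array, as the difference from the list's mean over the 6 arrays, with red for Cbl-b-/- and blue for WT. Adipocyte and muscle genes share their lowest array, Cbl-b-/- 2, and the hair follicle list stands highest in WT 3.

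Genes that bring fatty acids and glycerol across the cell surface included the highest log2 fold change of the 32. Aqp7 measured 8.39, 6.72 and 7.37 in Cbl-b-/- replicates 1 to 3 and 6.72, 6.63 and 6.07 in WT replicates 1 to 3. The lowest Cbl-b-/- array and the highest WT array were equal to 2 decimals, so the genotypes met without overlapping, and Cbl-b-/- replicate 1 stood apart above the rest. The means were 7.49 ± 0.84 (SD, n = 3) and 6.47 ± 0.35 (SD, n = 3), for a log2 fold change of 1.02 (SE 0.42, 95% interval 0.02 to 2.02, adjusted p = 0.749, limma). Its unadjusted p was 0.0474 in limma and 0.125 in the methods' test. Aqp7 also missed the study's thresholds when any single array other than Cbl-b-/- replicate 2 was left out, with log2 fold changes from 0.57 without Cbl-b-/- replicate 1 to 1.14 without WT replicate 1. Without Cbl-b-/- replicate 2 it met them, at 1.41.

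Fabp4, the fatty acid carrier of the adipocyte cytoplasm, measured 10.35, 8.54 and 9.83 in Cbl-b-/- replicates 1 to 3 and 10.02, 9.27 and 8.81 in WT replicates 1 to 3. Its log2 fold change of 0.21 (SE 0.51) was smaller than the spread within either genotype. Lpl, the lipoprotein lipase of the capillary wall, had 0.09 (SE 0.37), with the lowest and the highest array both from Cbl-b-/- skin. The upper ends of their 95% intervals were 1.43 for Fabp4 and 0.99 for Lpl, so a difference of the size found for Aqp7 lay within the interval of Fabp4 and just above that of Lpl.

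Promoter windows are shown for Aqp7, the gene that met the thresholds, and for Lep, Plin1 and Cidec. These 3 are widely varying genes that were picked because they hold a C/EBP motif. Each window holds the 250 bases before the RefSeq transcription start in GRCm38.p6, read 5′ to 3′ on the strand of the gene. The Aqp7 window is chr4:41048137-41048386 (minus strand), that of Lep chr6:29059971-29060220 (plus strand), that of Plin1 chr7:79732777-79733026 (minus strand) and that of Cidec chr6:113434765-113435014 (minus strand). In Aqp7, capitals mark AGGTCA or its complement TGACCT, a half-site of the direct repeats that nuclear receptors such as PPARγ bind. A single half-site is not a full repeat. In the others they mark the C/EBP motif TTGCNNAA, and both motifs were searched on both strands. No window of the 4 holds both motifs. RefSeq gives a second Aqp7 start, whose window, chr4:41047963-41048212, overlaps the one shown and holds the same motif and another, 223 and 101 bases before that start.
Aqp7: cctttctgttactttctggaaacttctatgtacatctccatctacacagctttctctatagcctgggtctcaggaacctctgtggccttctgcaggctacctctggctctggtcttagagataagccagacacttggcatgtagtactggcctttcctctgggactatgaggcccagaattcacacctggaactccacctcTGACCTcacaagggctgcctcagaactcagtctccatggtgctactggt
Lep: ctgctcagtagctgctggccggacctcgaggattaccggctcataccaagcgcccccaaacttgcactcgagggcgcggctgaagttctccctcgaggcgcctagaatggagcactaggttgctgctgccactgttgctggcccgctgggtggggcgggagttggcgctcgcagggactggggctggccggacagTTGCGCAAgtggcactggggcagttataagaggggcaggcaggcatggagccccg
Plin1: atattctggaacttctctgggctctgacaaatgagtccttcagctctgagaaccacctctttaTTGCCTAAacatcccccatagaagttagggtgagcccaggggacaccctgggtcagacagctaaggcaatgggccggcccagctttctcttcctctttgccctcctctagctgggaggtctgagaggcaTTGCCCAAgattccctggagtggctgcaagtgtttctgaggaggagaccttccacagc
Cidec: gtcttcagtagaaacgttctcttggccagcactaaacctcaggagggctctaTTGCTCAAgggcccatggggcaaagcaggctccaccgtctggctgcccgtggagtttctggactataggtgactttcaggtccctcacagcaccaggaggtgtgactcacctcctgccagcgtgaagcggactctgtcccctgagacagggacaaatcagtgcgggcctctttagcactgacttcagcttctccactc
The motif in Aqp7 begins 49 bases before the start, that in Lep 55, those in Plin1 187 and 58, and that in Cidec 198. RefSeq windows were at hand for 26 of the 35 genes, 38 windows in all. AGGTCA stood in 9 of the 38 (23.7%) and in 14% of all 32851 windows, and TTGCNNAA in 4 of the 38 (10.5%) and in 9.56% of all windows. Some genes have more than 1 window, and the overlapping windows of Aqp7 count a shared site more than once. By gene, AGGTCA stood in 7 of the 26 and TTGCNNAA in 4, a count that was not made over all genes. A match describes the letters and was not tied to any level here.

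**Figure D3:**
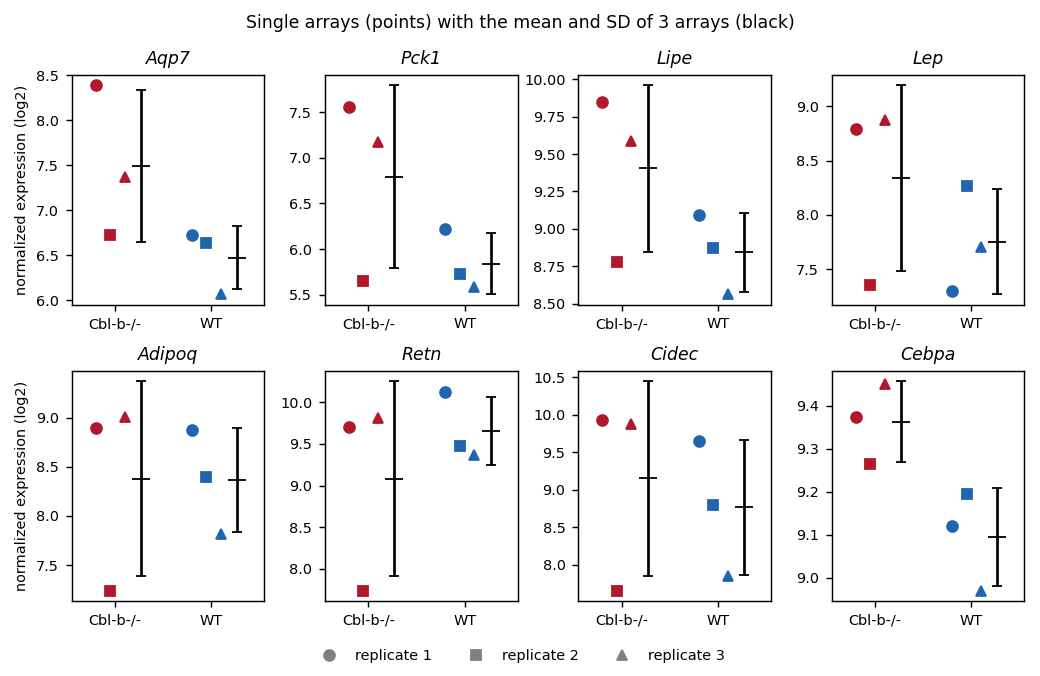
Log2 level of 8 adipocyte genes in single arrays (points, shaped by replicate) with the mean and SD of 3 arrays (black), Cbl-b-/- in red and WT in blue, each panel on its own axis. Cbl-b-/- replicate 2 is the lowest Cbl-b-/- array in all 8 panels, and the genotypes do not overlap for Cebpa, nor, by less than the plotted point, for Aqp7.

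The adipokines, hormones and other proteins that fat cells secrete, did not move one way between genotypes. Of the 4 measured, 2 lay above 0 and 2 below, with a median log2 fold change of -0.03, and 0 met the thresholds. Adipoq (adiponectin, made by fat cells) measured 8.89, 7.24 and 9.01 in Cbl-b-/- replicates 1 to 3 and 8.87, 8.40 and 7.82 in WT replicates 1 to 3. Its log2 fold change was 0.02 (SE 0.51, 95% interval -1.21 to 1.25), so neither a doubling nor a halving in Cbl-b-/- skin lay outside the interval. Lep, the satiety hormone leptin, measured 8.79, 7.36 and 8.87 in Cbl-b-/- replicates 1 to 3 and 7.30, 8.26 and 7.70 in WT replicates 1 to 3. Its mean difference reached the fold threshold at 0.59 (SE 0.45), but the genotypes overlapped and the p was 0.235 in limma. Leptin was the only one of the 4 whose lowest WT array was replicate 1 and not replicate 3.

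Retn (resistin, an adipocyte hormone in mice) had the widest range of the 32 genes, 2.39 log2 units or 5.24-fold. It measured 9.70, 7.74 and 9.81 in Cbl-b-/- replicates 1 to 3 and 10.13, 9.47 and 9.37 in WT replicates 1 to 3. The log2 fold change of -0.57 (SE 0.56) was the lowest of the 32, rested on Cbl-b-/- replicate 2 and became 0.10 without it. Angptl4, an inhibitor of lipoprotein lipase that rises in fasting, had -0.07 (SE 0.28) and was lowest in Cbl-b-/- replicate 3.

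Genes of the lipid droplet lay mostly above 0 without meeting the thresholds. Of the 7 measured, 6 were above 0, with a median log2 fold change of 0.31. Plin1, the perilipin that guards the droplet of fat cells from lipases, measured 8.96, 6.99 and 8.54 in Cbl-b-/- replicates 1 to 3 and 7.99, 7.78 and 7.81 in WT replicates 1 to 3. Both the highest and the lowest array were Cbl-b-/-, the WT arrays lay close together between them, and the log2 fold change was 0.31 (SE 0.48). Plin4, a perilipin of small droplets, measured 10.32, 8.86 and 9.93 in Cbl-b-/- replicates 1 to 3 and 9.47, 9.47 and 8.85 in WT replicates 1 to 3. Cidec, which fuses small droplets into a large one, measured 9.93, 7.65 and 9.87 in Cbl-b-/- replicates 1 to 3 and 9.66, 8.79 and 7.85 in WT replicates 1 to 3. Its 95% interval, -1.34 to 2.11, left the difference undetermined in either direction. Plin2, the perilipin found in most cells, had 0.31 (SE 0.25). Cidea, a relative of Cidec that sebaceous glands and brown fat also express, had -0.08 (SE 0.19). Bscl2 (seipin, needed to form droplets) and Cav1 (caveolin 1, of the caveolae of fat and endothelium) had 0.11 and 0.23, and these 3 genes had the narrowest ranges of the 7.

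In triglyceride synthesis, all Cbl-b-/- arrays lay above all WT arrays for Agpat2. It encodes the acyltransferase that makes phosphatidic acid, and its loss causes lipodystrophy. Agpat2 measured 9.02, 9.07 and 9.07 in Cbl-b-/- replicates 1 to 3 and 8.95, 8.70 and 8.84 in WT replicates 1 to 3. The log2 fold change was 0.22 (SE 0.09, adjusted p = 0.749, limma), a 1.17-fold difference with an unadjusted p of 0.0425, under the fold threshold. That p was under 0.05 with an array left out in 1 of 6 cases, without WT replicate 1. Unlike most of the others, Agpat2 was not low in Cbl-b-/- replicate 2. Every Cbl-b-/- array lay above every WT array for 4 of the 32 genes, Aqp7, Agpat2, Cebpa and Ucp1, against 8.66% of all rows, and below for 0, against 4.89%.

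Pck1, the cytosolic carboxykinase with which fat cells make glycerol 3-phosphate, came nearest to the thresholds among the genes that missed them by p alone. It measured 7.55, 5.66 and 7.17 in Cbl-b-/- replicates 1 to 3 and 6.22, 5.72 and 5.58 in WT replicates 1 to 3. The WT mean of 5.84 and Cbl-b-/- replicate 2 were thus near the background level of 5.43. Cbl-b-/- replicates 1 and 3 stood above all WT arrays and replicate 2 among them, and the log2 fold change of 0.95 (SE 0.48) had an unadjusted p of 0.0925 in limma. The other 5 genes of this group had log2 fold changes from -0.21 to 0.22, all with overlapping genotypes. They were Gpd1, which makes glycerol 3-phosphate from glucose carbon, at -0.21, the acyltransferase Gpam at -0.08, the phosphatidate phosphatase Lpin1 at 0.22, and the diacylglycerol acyltransferases Dgat1 and Dgat2 at 0.11 and 0.04. Lpin1 and Gpd1 were lowest in Cbl-b-/- replicate 2, and Dgat1 was highest there.

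The lipolysis genes, which free fatty acids from the droplet, had a median log2 fold change of 0.31 over 5 genes, of which 4 lay above 0 and 0 met the thresholds. Lipe (hormone-sensitive lipase) measured 9.85, 8.78 and 9.59 in Cbl-b-/- replicates 1 to 3 and 9.10, 8.87 and 8.57 in WT replicates 1 to 3. As for Pck1, Cbl-b-/- replicates 1 and 3 lay above all WT arrays and replicate 2 did not, with a log2 fold change of 0.56 (SE 0.29) and an unadjusted p of 0.0944 in limma. Pnpla2, the lipase ATGL that makes the first cut, measured 10.64, 9.49 and 10.47 in Cbl-b-/- replicates 1 to 3 and 10.25, 9.84 and 9.52 in WT replicates 1 to 3, a log2 fold change of 0.34 (SE 0.33). G0s2, the inhibitor of ATGL, had 0.31 (SE 0.14) with an unadjusted p of 0.0652. Mgll, which cuts the last fatty acid, measured 10.78, 10.06 and 10.27 in Cbl-b-/- replicates 1 to 3 and 10.30, 10.69 and 10.14 in WT replicates 1 to 3. Its log2 fold change was -0.01 (SE 0.22). Pnpla3, a relative of ATGL, had 0.01 (SE 0.20).

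For Cebpa, which encodes C/EBPα, all Cbl-b-/- arrays also lay above all WT arrays, by less than the fold threshold. It measured 9.37, 9.27 and 9.45 in Cbl-b-/- replicates 1 to 3 and 9.12, 9.19 and 8.97 in WT replicates 1 to 3. The log2 fold change was 0.27 (SE 0.10, adjusted p = 0.749, limma), with an unadjusted p of 0.0279. That p stayed under 0.05 without Cbl-b-/- replicate 2 or WT replicate 2, and was over it without each of the other 4 arrays. Pparg measured 8.59, 7.96 and 8.85 in Cbl-b-/- replicates 1 to 3 and 8.25, 8.34 and 8.12 in WT replicates 1 to 3. The highest and the lowest Pparg values were thus both from Cbl-b-/- skin, and the log2 fold change was 0.23 (SE 0.22). C/EBPα is also made by keratinocytes and sebaceous cells.

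Of the receptors, Ghr, the growth hormone receptor, measured 10.08, 8.79 and 9.98 in Cbl-b-/- replicates 1 to 3 and 9.82, 9.54 and 9.11 in WT replicates 1 to 3. Adipor2, a receptor of adiponectin, measured 9.98, 9.94 and 9.91 in Cbl-b-/- replicates 1 to 3 and 9.87, 9.98 and 9.62 in WT replicates 1 to 3. Their log2 fold changes were 0.13 (SE 0.37) and 0.12 (SE 0.11), and only Ghr shared the low value in Cbl-b-/- replicate 2. Car3, a carbonic anhydrase abundant in fat and muscle, measured 12.21, 11.30 and 12.13 in Cbl-b-/- replicates 1 to 3 and 12.29, 12.04 and 11.52 in WT replicates 1 to 3. Its log2 fold change was -0.07 (SE 0.30). Ucp1 measured 4.27, 4.21 and 4.18 in Cbl-b-/- replicates 1 to 3 and 4.10, 4.09 and 4.08 in WT replicates 1 to 3. The genotypes did not overlap, but both were under the background level, so no fold is given.

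**Figure D4:**
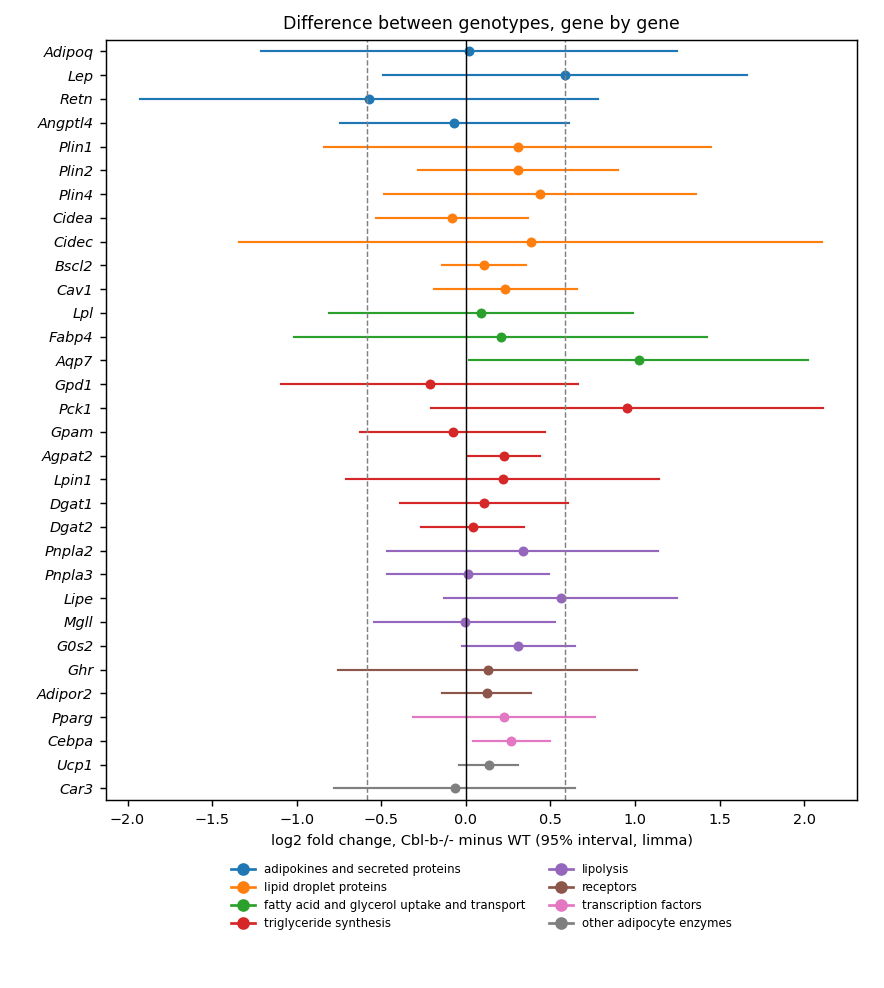
Log2 fold change (Cbl-b-/- minus WT) of each of the 32 genes with its 95% interval from limma, coloured by role, with dashed lines at the 1.5-fold threshold. The interval excludes 0 for 3 genes, Aqp7, Agpat2 and Cebpa, and the widest interval is that of Cidec.

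The comparison depended on Cbl-b-/- replicate 2, the array with the lowest adipocyte gene level. Without it, 7 of the 32 genes met the study's thresholds, all higher, against 0.596% of all rows, and 30 of the 32 lay above 0 with a median log2 fold change of 0.34. They were Pck1 (1.52), Aqp7 (1.41), Lep (1.08), Plin1 (0.89), Lipe (0.87), Plin4 (0.86) and Pnpla2 (0.69). Without any other single array that count was 0, against 1.2% to 1.56% of all rows in either direction, so 0 of 32 lies near the share. At an unadjusted p under 0.05 alone, 12 of the 32 were called without Cbl-b-/- replicate 2, all higher, where 7.47% of all rows were called in either direction, against 6.55% with all 6 arrays. No label or file gives a reason to leave that array out, and the main values keep it. Because its median level of these same genes was the lowest, leaving it out raised their Cbl-b-/- level by construction. The shares of all rows are therefore no even reference for the counts without it.

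With each array's median level of the 32 genes added to the limma model, a setting chosen after the data were seen, built from the genes themselves and left with 3 residual degrees of freedom, 3 genes met the thresholds, against 1.3% of all rows. Pck1 (0.84, unadjusted p = 0.000489, limma) and Aqp7 (0.94, unadjusted p = 0.00638, limma) were higher in Cbl-b-/- skin at an equal level of the list, and Retn (-0.70, unadjusted p = 0.0104, limma) was lower. At an unadjusted p under 0.05 alone the count was 7, against 6.31% of all rows. The covariate is the median of these same genes, so it takes up spread that they share. The SE of Pck1 was 0.48 in the main fit and 0.12 with the covariate, and that of Aqp7 0.42 and 0.22. The shares of all rows are therefore no even reference for these counts, and the p-values are no independent support. Adjusted p-values in that setting were 0.300 for Pck1, 0.673 for Aqp7 and 0.709 for Retn.

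**Figure D5:**
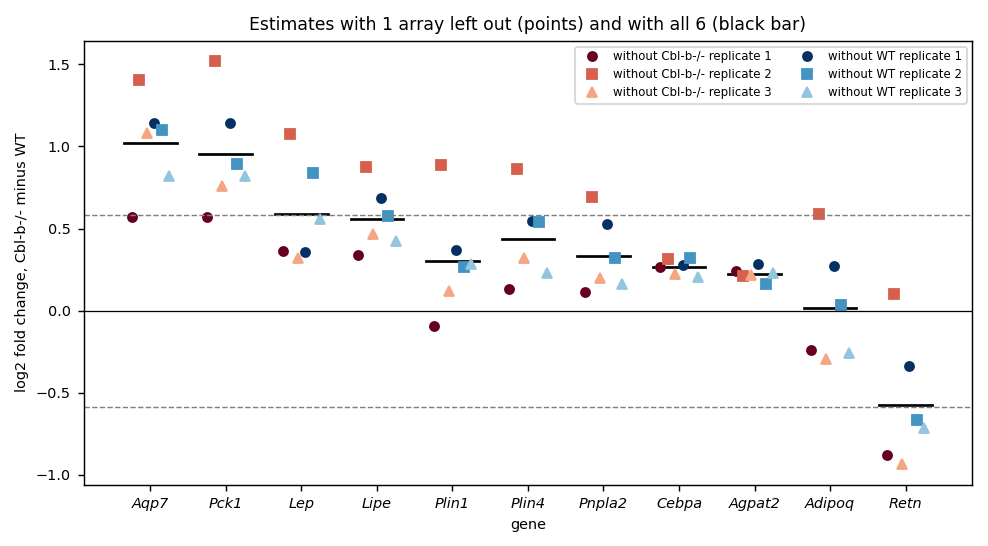
Log2 fold change (Cbl-b-/- minus WT) of 11 adipocyte genes with all 6 arrays (black bar) and with each array left out in turn (points), with dashed lines at the 1.5-fold threshold. For every gene shown except Cebpa and Agpat2, Aqp7 included, the highest estimate is the one without Cbl-b-/- replicate 2. The estimates of Plin1, Adipoq and Retn lie on both sides of 0.

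Of 48 further adipocyte genes, 45 had a row, and their median log2 fold change was 0.07, with 32 above 0. At the study's thresholds 1 was higher and 0 were lower, against 0.276% and 0.945% of all rows, and at an unadjusted p under 0.05 the counts were 4 and 2, against 3.68% and 2.87%. The gene past the thresholds was Pde3b, the phosphodiesterase through which insulin restrains lipolysis. It measured 6.82, 6.56 and 7.49 in Cbl-b-/- replicates 1 to 3 and 6.46, 5.99 and 5.92 in WT replicates 1 to 3, a log2 fold change of 0.84 (SE 0.26, adjusted p = 0.733, limma). Pde3b missed the thresholds in the methods' test and without Cbl-b-/- replicate 3, WT replicate 2 or WT replicate 3. Genes under the fold threshold were Ebf1, an adipocyte transcription factor (0.33), Hilpda, an inhibitor of ATGL (0.34), and the adiponectin receptor Adipor1 (0.22) on the higher side. Cebpd, an early factor of fat cell formation (-0.53), and Acaca, the carboxylase of fatty acid synthesis (-0.42), were on the lower side. Of 9 measured brown fat genes, 5 lay below 0 and 4 above, with a median log2 fold change of -0.05, and 2 met the thresholds as higher in limma, against 0.276% of all rows. These were Dio2 (0.68), the deiodinase that activates thyroid hormone, and Zic1 (0.65), a transcription factor. Neither met them in the methods' test. Leaving out Cbl-b-/- replicate 2 or 3 or WT replicate 1 ended the call of Dio2, and leaving out Cbl-b-/- replicate 3 or WT replicate 1 or 2 that of Zic1. Ucp1, the defining gene of brown fat, was under background.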

How the data were processed

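Levels were measured on Affymetrix Mouse Gene 1.0 ST arrays in RNA from the dorsal skin of 3 mice of each genotype, Cbl-b-/- and WT. RMA (robust multichip average) normalization was done by the authors, and the submitters' processing notes name Affymetrix Expression Console and Partek 6.5. The deposited table holds 1 log2 value per transcript cluster and array and was used as deposited. Every column belongs to 1 of the 6 arrays. The genome build behind it is not given in the sources used here, and its gene names come from the platform annotation, with 21789 rows carrying 1 symbol, 1621 several and 12146 none. RMA shares information between arrays, and its background step narrows differences between dim rows.

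Groups and replicate numbers come from the sample labels. The study's text calls the replicates biological. The genotypes were compared with limma 3.58.1 in R 4.3.3 over all 35556 rows, with the Benjamini-Hochberg adjustment over all of them. The methods' test is the study's per-gene analysis of variance between the genotypes, run on the same values. A gene was read from the row that carries its symbol alone, and background is the 95th percentile of the mean levels of olfactory receptor rows. Motifs were sought in RefSeq promoter windows of GRCm38.p6. The script was tested on simulated data. The number of arrays limits the precision.

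The genes and lists were chosen with earlier results of these data known, so no test over a list was made. Values in every array are given for genes that met the study's thresholds or an unadjusted p under 0.05, for genes whose genotypes did not overlap, and for up to 10 that led their role group by mean level or range. Adipoq, Lep, Plin1, Plin4 and Pnpla2, and the further genes under the fold threshold, were added after their values were seen. Alternatives were cyclic loess, centring on array medians, leaving out dim rows, an intensity trend in the variance, the methods' test, a replicate block, the mean of all rows of a symbol, leaving out each array in turn and, chosen after the data were seen, the level of the genes as a covariate. Groups of 3 are too small for the search for outlying arrays, and no result was listed for a closer look.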

Additional observations from a re-analysis of the deposited data

How the results depend on the processing

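The log2 fold changes of 15 of the 32 genes kept their direction under every alternative, Aqp7, Pck1, Lipe, Cebpa and Agpat2 among them. The other 17 changed sign, 15 of them only when an array was left out. Leaving out each array in turn, the log2 fold changes ran as follows: Adipoq -0.30 to 0.59, Retn -0.94 to 0.10, Angptl4 -0.23 to 0.23, Plin1 -0.093 to 0.89, Cidea -0.24 to 0.072, Cidec -0.073 to 1.13, Lpl -0.17 to 0.53, Fabp4 -0.18 to 0.72, Gpd1 -0.48 to 0.15, Gpam -0.26 to 0.18, Lpin1 -0.025 to 0.62, Dgat1 -0.048 to 0.33, Dgat2 -0.060 to 0.11, Pnpla3 -0.12 to 0.18, Mgll -0.21 to 0.15, Ghr -0.10 to 0.54 and Car3 -0.28 to 0.22. With the level of the genes as a covariate, chosen after seeing the data, Adipoq (-0.096) and Pnpla3 (-0.020) also turned.

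Of the 32 genes, 1 met the study's thresholds. The count was 0 with the methods' test, 3 with the covariate and 0 to 7 when arrays were left out, the 7 without Cbl-b-/- replicate 2. At an unadjusted p under 0.05 it was 3, with 7 under the covariate and 0 to 12 without single arrays, the 12 without Cbl-b-/- replicate 2. The shares of all rows at that p were 6.55% with all arrays, 6.31% under the covariate and 7.47% without that array. Neither the share under the covariate nor the last one is an even reference. The covariate was built from these same genes, and that array had their lowest level. Over all rows, 434 met the thresholds, 289 with dim rows left out, 267 with the methods' test and 428 to 790 without single arrays, the 790 without Cbl-b-/- replicate 2, and 1 passed at an adjusted p, 2 with the methods' test and 1 to 2 without single arrays. The cause of the changes under the methods' test and the covariate was not tested. Same-numbered arrays of the genotypes had correlated deviations of 0.233, 0.0924 and 0.247, not all above 0.1, and the labels name no shared source, so the numbers were not used to pair them. These values do not settle whether they pair. With a replicate block 2 of the 32 genes met the thresholds, Aqp7 and Pck1, against 1.27% of all rows. At an unadjusted p under 0.05 the count stayed at 3, with Pck1 and Plin2 in place of Agpat2 and Cebpa. The share of all rows at that p was not counted with a block, so the 3 cannot be set beside it. By these deviations 5 of the 6 arrays correlated best with the array of their own number.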
